A study of Drosophila melanogaster with 2 samples.

Results

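The mitochondrial ATP synthase genes and a set of genes for mitochondrial carriers and channels were followed in the indirect flight muscles of control and *bs* KD flies. The members were every gene whose FlyBase symbol starts with ATPsyn, 15 genes, and 17 named carriers and channels, and all 17 of these were found. Together they are 32 of the 13931 genes in the deposited table. The flies of both groups were females aged 3 days that carried the *1151-Gal4* driver, which acts in the myoblasts of all adult muscles. The control genotype, 1151/+, came from a cross of the driver to *w1118* and held the driver alone. In the *bs* KD genotype, 1151>bs[RNAi KK108659], the driver also expressed a double-stranded RNA against *bs*, which encodes the *Drosophila* SRF ortholog, and this RNA targets the *bs-RA* and *bs-RC* transcripts but not *bs-RB*. Each genotype is represented by 1 library of polyadenylated RNA, made from the pooled flight muscles of 4 females. No difference below therefore has a replicate check, and no test was run.

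ATP synthase is the rotary enzyme of the inner mitochondrial membrane that makes ATP from ADP and phosphate with the energy of the proton gradient. Its F1 head carries the catalytic sites, a central and a peripheral stalk connect the head to the membrane, and a ring of c subunits turns as protons pass. The carriers of the SLC25 family span the same membrane and bring in ADP, phosphate and fuel molecules, and porin forms the pores of the outer membrane. Indirect flight muscle works almost entirely on oxidative metabolism and is packed with large mitochondria.

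The RNA was that of flight muscle. The 6 flight muscle markers (*Act88F*, *fln*, *Mhc*, *TpnC4*, *up* and *salm*) summed to 67598 TPM in control muscle and 47195 TPM in *bs* KD. TPM counts transcripts per 1000000. These markers did not move together. The flight muscle actin gene *Act88F* (33116 and 7471 TPM), *Mhc* (6295 and 4993 TPM) and *salm* (16.8 and 6.31 TPM) were lower. By contrast, *fln* (13111 and 16500 TPM), *TpnC4* (7568 and 9037 TPM) and *up* (7492 and 9186 TPM) were higher. The targeted gene *bs* stood at 2.75 TPM in control muscle and 1.80 TPM in *bs* KD, or 65.6% of control. This value, from 148 and 98.3 reads, covers all transcripts of the gene, also the untargeted *bs-RB*. By quantitative PCR of the targeted *bs-RA* and *bs-RC* transcripts in flight muscle, the study found a much stronger reduction. Depth was 20955053 estimated reads in the control and 19767477 in *bs* KD. Markers of other cells were low but not equal. The 5 tracheal markers summed to 38.4 TPM in control muscle and 8.76 TPM in *bs* KD, with 3 of them lower by 2-fold or more. The 4 tubular muscle markers summed to 23.4 and 72.5 TPM but did not move together. *Act57B* (2.08 and 31.5 TPM) and *TpnC41C* (1.96 and 21.3 TPM) were higher. The jump muscle actin gene *Act79B* was level (18.9 and 19.5 TPM), and *TpnC73F* was lower (0.449 and 0.0709 TPM). The 6 fat body markers summed to 22.4 and 22.3 TPM but went apart, with *Lsp2* (2.34 and 0.388 TPM) and *Fbp1* (1.96 and 0.222 TPM) lower and *Yp1* (4.35 and 9.31 TPM) and *Yp3* (0.399 and 1.76 TPM) higher. Gut markers summed to 2.52 and 9.66 TPM over 5 genes, and neuronal markers to 3.99 and 1.92 TPM over 4. Of 7 testis markers 6 were listed at 0 in both libraries and *Mst87F* had 0.355 and 3.91 TPM, and none of 3 ovary markers reached 1 TPM. The part of other cells in the values of the weakly expressed carriers was not tested, and in such bulk samples fewer cells of a type and less RNA per cell cannot be told apart.

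ATP synthase genes were among the most abundant in the muscle. Detection required 1 TPM in either library, and 11 of the 15 ATP synthase genes were detected. All 11 were above 1000 TPM in the control, where 168 genes of the whole table lay. Summed over the group, they held 74119 TPM in control muscle and 76787 TPM in *bs* KD, or 7.41% and 7.68% of all TPM. Within the group the levels fell into a high pair and a narrow band. *ATPsynC*, which encodes the c subunit of the membrane ring, stood at 18716 TPM in control muscle and 19717 TPM in *bs* KD and was the 9th and 8th most abundant gene. *ATPsynbeta*, the catalytic subunit of the head, followed at 15280.2 and 13915 TPM. The other 9 genes lay between 3707 and 5212 TPM in the control, a range of 1.41-fold, and between 4093 and 6026 TPM in *bs* KD, a range of 1.47-fold.

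**Figure D1:**
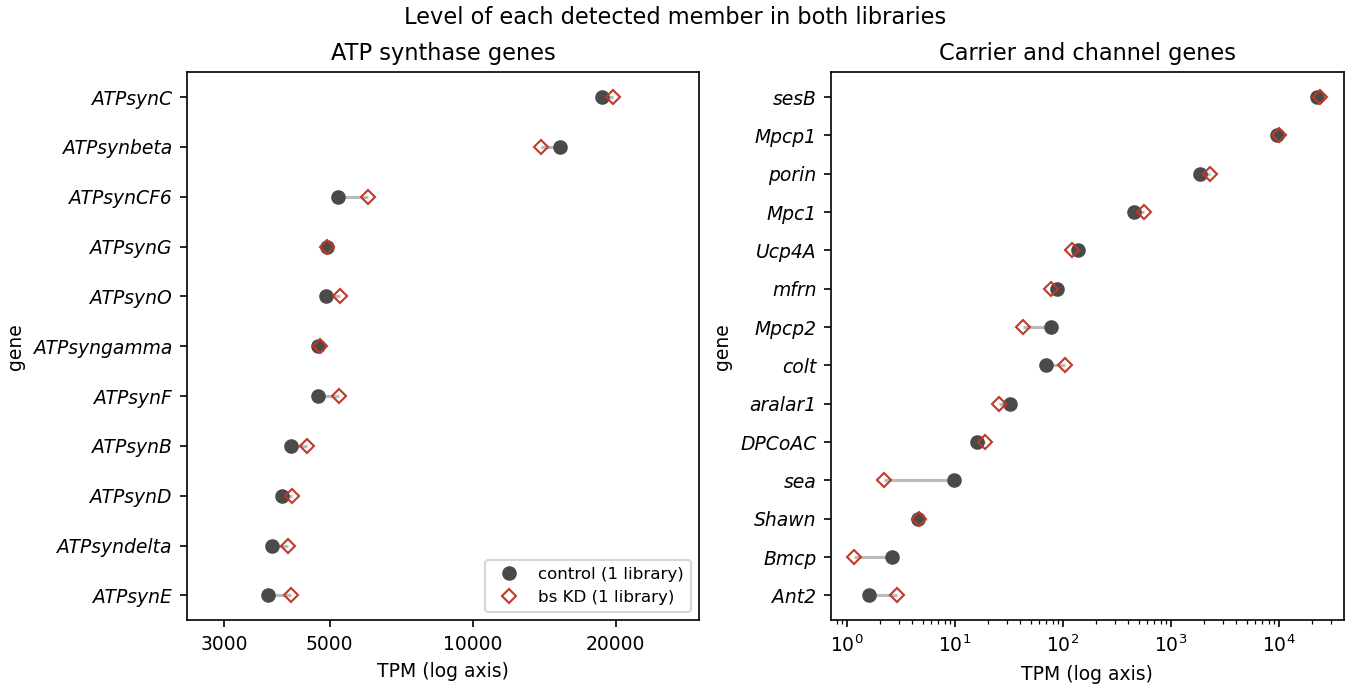
TPM of each detected gene in the control library (filled circles) and the *bs* KD library (open diamonds), on log axes that differ between the panels, with 1 library per genotype. The 9 ATP synthase genes below *ATPsynbeta* share a band from 3707 to 6026 TPM, while the 14 carrier and channel genes run from 1.17 TPM (*Bmcp*) to 24180.2 TPM (*sesB*).

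The genes of the narrow band were taken by their place in the enzyme. In the central stalk, *ATPsyngamma*, the shaft that turns inside the head, had 4736 TPM in control muscle and 4782 TPM in *bs* KD. *ATPsyndelta*, at the foot of this shaft, had 3775 and 4093 TPM. In the peripheral stalk, *ATPsynO*, the subunit that confers oligomycin sensitivity, had 4906 and 5261 TPM. *ATPsynB* had 4142 and 4492 TPM and *ATPsynD* 3976 and 4178 TPM. *ATPsynCF6* (coupling factor 6) had 5212 and 6026 TPM, the largest relative difference of these 11 genes as TPM, while with median-ratio scaling *ATPsynbeta* differed more (−0.26 against 0.080 on the log2 scale). Among the small membrane subunits, *ATPsynG* was level at 4939.6 and 4932 TPM, *ATPsynF* had 4729 and 5235 TPM, and *ATPsynE* had 3707 and 4156 TPM. The band thus held subunits of both stalks and the membrane part, while *ATPsynbeta* of the head stood above it.

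The change of each gene was expressed as a log2 ratio of *bs* KD to control after adding 1 TPM to both. For the 11 ATP synthase genes it ran from −0.13 for *ATPsynbeta* to 0.21 for *ATPsynCF6*, with a median of 0.10, against a median of 0.073 over all 6384 detected genes. None of the 11 reached 2-fold in either direction. Over all detected genes, 9.38% were higher and 6.05% were lower by that size (599 and 386 genes, or 447 and 462 with upper-quartile scaling). Such changes were rarer among abundant genes, with 1 higher and 5 lower of the 154 other genes above 1000 TPM. The standard deviation of the change was 0.094 over the 11 genes and 0.57 over the 154 other genes above 1000 TPM. A few extreme genes weigh on the latter value, since the 154 ran from −5.08 to 1.78. The interquartile ranges, 0.089 and 0.30, lay closer together. All 11 of the ATP synthase genes lay within 0.25 of 0 on the log2 scale, as did 103 of the 154 others (66.9%). *ATPsynbeta* left that range with median-ratio scaling (−0.26), upper-quartile scaling (−0.28) and deposited length classes removed (−0.36), *ATPsynCF6* (0.31) and *ATPsynE* (0.27) left it with reads scaled to the library total, and 6 genes did with 20 implied length classes removed, down to −0.35 for *ATPsynG*.

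Of the 11 genes, 9 were higher in *bs* KD as TPM, but with *bs* KD scaled by the median ratio of genes expressed at 10 TPM or above in each library only 3 were, and with upper-quartile scaling 2. The direction of such small differences therefore rests on how the libraries are scaled. The ratio of the summed TPM, *bs* KD over control, was 1.036 with a 95% counting interval of 1.033 to 1.039, and 0.947 with median-ratio scaling. These intervals are exact, were computed from the estimated reads, and cover counting error only. They exclude 1 for 10 of the 11 genes because the genes have between 30181 and 442304 reads in the control. Differences between flies and dissections are not in them.

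Ratios taken inside one library do not depend on that scaling. *ATPsynbeta* stood at 3.23 times the median of the 9 band genes in control muscle and 2.91 times in *bs* KD. *blw*, which encodes the alpha subunit that alternates with beta in the head and whose symbol keeps it out of the set, moved alike, from 1.79 to 1.59 times that median. The ratio of *ATPsynbeta* to *blw* was 1.81 and 1.84. *ATPsynC* stood at 3.96 and 4.12 times the median. As TPM both head genes were thus lower relative to the band, a direction that turned for *ATPsynbeta* once trends with implied length were removed, and their ratio to each other differed little. With 1 library per genotype the spread of these ratios between samples is unknown.

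Close copies of 4 subunits were silent or nearly so. *ATPsynbetaL*, *ATPsynCF6L* and *ATPsynGL* were listed at 0 in both libraries, where a count of 0 allows up to 3 reads, or at most 0.37 TPM for any of them. *ATPsynepsilonL*, a copy of the epsilon subunit, had 0.161 TPM in control muscle and 0.376 TPM in *bs* KD, from 1.12 and 2.23 estimated reads. The beta pair shows the contrast best, with 442304 control reads on *ATPsynbeta* and none on *ATPsynbetaL*, which allows the copy a share of up to 0.000678%. In the *ATPsynCF6* pair the same limit was 0.00735%, and in the *ATPsynG* pair 0.00867%.

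Carriers and channels covered a far wider range than the ATP synthase genes. Of the 17 genes 14 were detected, from 1.58 to 22682 TPM in the control, and *sesB*, *Mpcp1* and *porin* made up nearly all of it, with 34137 of 35027 TPM. The group summed to 35027 TPM in control muscle and 37448 TPM in *bs* KD, 3.50% and 3.74% of all TPM, a ratio of 1.069 (counting interval 1.066 to 1.072) that became 0.978 with median-ratio scaling. The changes had a median of 0.049, with 8 genes higher and 6 lower, and −0.068 with 5 higher under median-ratio scaling. Their standard deviation was 0.63, against 0.79 over all detected genes.

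The carriers that exchange the substrates and product of ATP synthase were present mainly through one copy each. *sesB*, the ADP/ATP translocase known for the stress-sensitive mutant, was the 7th most abundant gene in both libraries, at 22682 TPM in control muscle and 24180.2 TPM in *bs* KD. Its neighbour and close copy *Ant2* had 1.58 and 2.88 TPM. *sesB* thus stood 14338-fold above *Ant2* in control muscle and 8389-fold in *bs* KD. Only 33.5 and 61.4 estimated reads were placed on *Ant2*, and the ratio of 1.82 has a counting interval of 1.18 to 2.90. The genes overlap on the X chromosome (*Ant2* from 10778954 to 10786907 and *sesB* from 10780893 to 10786958, both on the minus strand, Release 6) and share 102 bases of exon. The effective length behind the *Ant2* values, the reads divided by TPM, was 1167 bases in both libraries, which is that of its 1266 bp transcript less 99 bases, and this transcript ends before *sesB* begins. The *Ant2* values remain uncertain at so few reads, and the part of reads from the shared bases in them was not tested.

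The phosphate carrier pair was less one-sided and showed a difference between its copies. *Mpcp1* had 9594 TPM in control muscle and 10023.5 TPM in *bs* KD. *Mpcp2* had 77.0 TPM in control muscle and 42.3 TPM in *bs* KD, 54.9% of the control level (counting interval 51.1% to 58.8%, from 2238 and 1238 reads). As a share of the pair's TPM, *Mpcp2* made up 0.796% in control muscle and 0.420% in *bs* KD. Its log2 change, −0.85, is short of 2-fold. It was −0.98 with median-ratio scaling and −0.92 with implied length classes removed. Only with deposited length classes removed, at −1.08, did it pass 2-fold. *porin*, the voltage-dependent anion channel of the outer membrane, had 1860.4 and 2286 TPM, a ratio of 1.23 (1.21 to 1.25). The size of this difference depends on the processing. The log2 change of *porin* was 0.30 as TPM, 0.17 with median-ratio scaling and 0.041 with implied length classes removed.

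**Figure D2:**
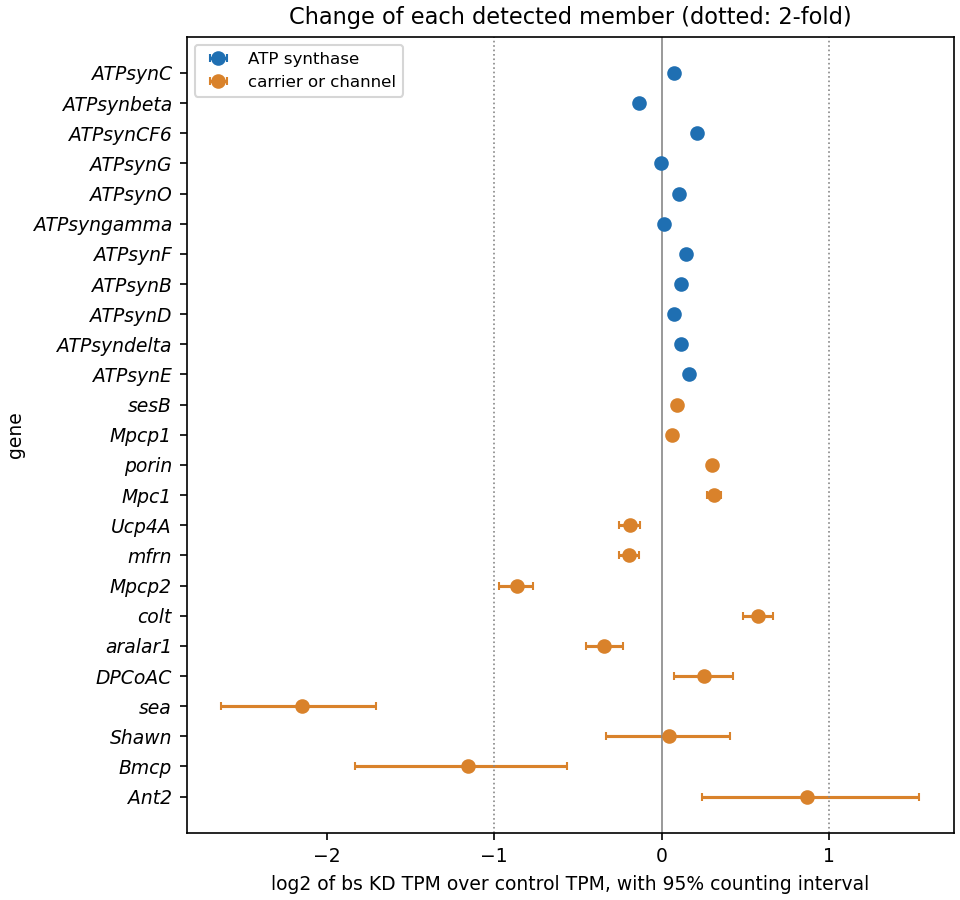
Log2 ratio of *bs* KD to control TPM for each detected gene, with no pseudocount, and its 95% counting interval as the bar, from 1 library per genotype. The 11 ATP synthase genes lie close to 0 (9 above it as TPM, 3 with median-ratio scaling), *sea* and *Bmcp* lie past the dotted 2-fold line on the lower side, and *Mpcp2* lies inside it.

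Carriers of fuel molecules went in both directions. *Mpc1*, a subunit of the pyruvate carrier, had 451 TPM in control muscle and 560 TPM in *bs* KD, a ratio of 1.24 (1.21 to 1.28). *colt*, the acylcarnitine carrier that serves fatty acid oxidation, had 69.3 and 103 TPM, a ratio of 1.49 (1.40 to 1.59). *aralar1*, the aspartate/glutamate carrier of the malate-aspartate shuttle, had 32.1 and 25.3 TPM, a ratio of 0.788 (0.731 to 0.850). *sea*, the citrate carrier, had 9.76 and 2.21 TPM. The acylcarnitine carrier was therefore higher, the aspartate/glutamate and citrate carriers were lower, and the pyruvate carrier was higher except with implied length classes removed (−0.015), in the *bs* KD library. Of these 4 genes *sea* alone reached 1.5-fold.

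With 1 TPM added, *sea* was the single member that differed by 2-fold or more, with a log2 change of −1.75. Without it *Bmcp* was past 2-fold too, at 2.23-fold lower. As plain TPM, *sea* was 4.43-fold lower in *bs* KD (counting interval 3.26 to 6.18, from 221 and 50.3 reads). After adding 1 TPM, 1 of 25 detected members was lower and 0 were higher, beside 6.05% and 9.38% of all detected genes. Most of the 25 lie above 1000 TPM, where 5 of 154 non-members were lower and 1 was higher. So few members do not set the group apart from these shares. A change lower than that of *sea* was found in 98 of the 6384 detected genes, and in 39 of the 1695 genes with 5 to 20 TPM in the control (2.30%). In Release 6 the gene spans 3R from 11559896 to 11567054 and is transcribed from the minus strand. It shares 85.2% of its exon bases with *fabp*, a fatty acid binding protein gene, through an annotated transcript of 1660 bp that spans both genes.

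The way the reads were divided between *sea* and *fabp* also shows in the lengths. Reads divided by TPM give the effective length that the quantification used, and this was 1248 bases for *sea* in both libraries, which is that of its 1347 bp transcript less 99 bases. For *fabp* it was 639 and 624 bases, near the 624 bases of its own 723 bp transcript. The spanning transcript, at 1561 bases by the same measure, is longer than the length behind either gene's value. *fabp* stood at 6.06 and 9.41 TPM, a ratio of 1.55 (1.14 to 2.13), and the sum of both genes was 15.8 and 11.6 TPM. The lengths come from the same division of reads, so the part of that division in the *sea* value was not tested. The 1347 bp transcript of *sea* (11559896 to 11562296) and the 723 bp transcript of *fabp* (11564058 to 11567054) do not overlap. The sum of both genes had a ratio of 0.734 (0.599 to 0.892), nearer to 1 than that of *sea*, as *fabp* was higher where *sea* was lower.

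Uncoupling proteins and related carriers were present through *Ucp4A*. It had 138 TPM in control muscle and 121 TPM in *bs* KD, while *Ucp4B* and *Ucp4C*, which lie next to each other on 2L, were listed at 0 in both libraries. A count of 0 allows the latter pair a share of up to 0.0695% of the reads of the 3 genes in the control. *Bmcp*, another carrier of the uncoupling protein family, had 2.60 and 1.17 TPM, a ratio of 0.448 (0.281 to 0.676, from 72.5 and 32.4 reads). Its log2 change of −0.73 depends on the TPM added, and was −1.09 with 0.1 TPM and −0.30 with 5 TPM in place of 1 TPM, the latter short of 1.5-fold. Together with *sea* and *Mpcp2* it made 3 members lower by 1.5-fold or more, against 15.1% of all detected genes, and *Ant2* alone was higher by that size, against 21.3%.

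The remaining carriers differed little. *mfrn* (mitoferrin), which brings iron into the matrix, had 88.2 and 77.0 TPM. *DPCoAC*, the dephospho-coenzyme A carrier, had 16.0 and 19.1 TPM, a ratio of 1.19 (1.05 to 1.34). *Shawn*, another SLC25 carrier, had 4.50 and 4.63 TPM, a ratio of 1.03 whose interval of 0.795 to 1.32 includes 1 and which was lower than 1 with median-ratio scaling. *Tyler* was listed at 0 in both libraries. The annotation gives *Shawn* and *Tyler* the same span on the X chromosome (19611526 to 19615617, plus strand) and the same exon bases, so the value of 0 says only that no read was assigned to *Tyler*.

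All members together were set against the whole transcriptome with a rule modelled on that of the study but run on the 6384 genes detected here, so its calls are not those of the study. Genes were split into tiers at 10, 100 and 1000 control TPM, a line was fitted within each tier, and a gene was counted when it lay more than 3 standard deviations from its line. None of the 25 detected members lay beyond it, against 1.28% of detected genes above and 0.047% below. The nearest was *sea* at −2.15 standard deviations, followed by *Mpcp2* at −1.74 and *sesB* at 1.72. These distances are in TPM and not in fold, so they grow with abundance, and *sesB* reached 1.72 with a ratio of only 1.07. A weakly expressed gene has little room to fall below its line. The rule could hardly count such a carrier as lower, so the lack of lower calls says nothing about these carriers. By tier, 14 members were in the top one, 2 in the high, 5 in the moderate and 4 in the low tier. The 11 members of the lower 3 tiers, all carriers, had a standard deviation of 0.70 on the log2 scale, close to the 0.69 of genes with 1 to 10 TPM and below the 0.92 of genes with 10 to 100 TPM.

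**Figure D3:**
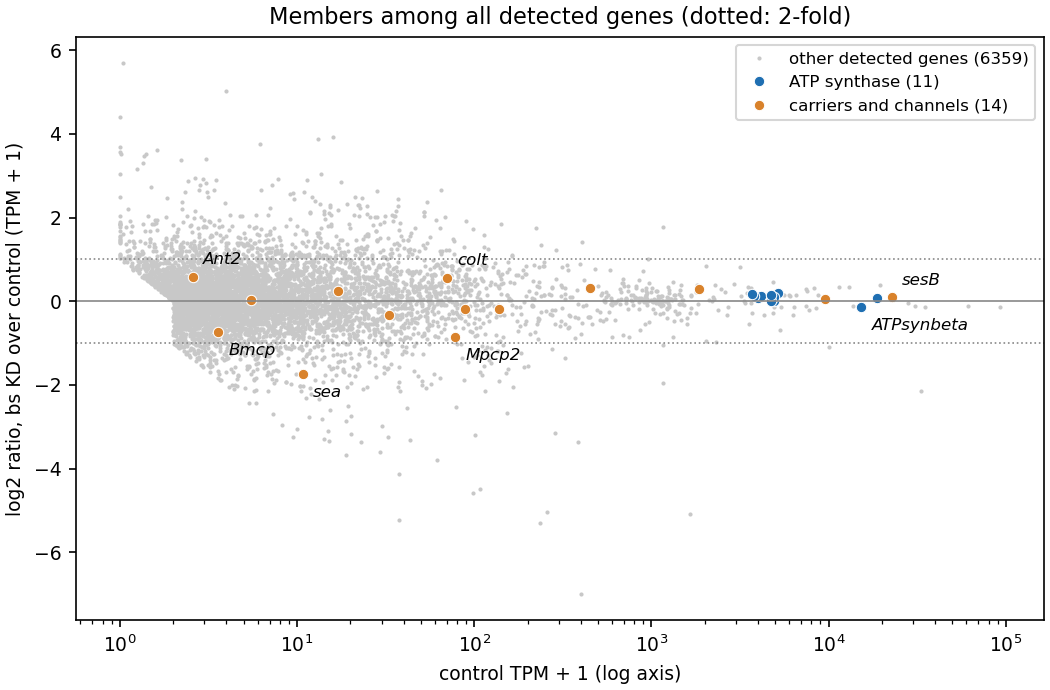
Log2 change of each of the 6384 detected genes against its control TPM plus 1 (log axis), with ATP synthase genes in blue, carriers and channels in orange and all others in grey, from 1 library per genotype. The abundant members sit near 0 at the right, and with 1 TPM added *sea* at −1.75 is the only member past the dotted 2-fold lines.

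The change also varied with transcript length over all genes. Among genes with at least 10 TPM in one library, split into 5 classes by the effective length that reads and TPM imply, the median log2 change was 0.49 in the class around 502 bases, 0.42 around 874 bases and −0.26 around 3521 bases. The ATP synthase genes are short, from 386 to 1051 bases apart from *ATPsynbeta* at 1596 bases, and their median of 0.10 is lower than that of either short class. With 20 such length classes over all detected genes removed, all 11 were below 0 and their median was −0.28. Among genes above 1000 TPM alone the trend was flatter, from 0.14 in the shortest of 5 classes to −0.27 in the longest, and with these classes removed 10 of the 11 were above 0, with a median of 0.067. Whether the group stood above or below genes of like length thus turned with the genes it was compared with. *ATPsynbeta* was above the group's median under both, at −0.21 with the 20 classes and 0.14 with the 5. *ATPsynbeta*, the lowest of the 11 as TPM, is also the longest, and a difference by length and a difference by subunit cannot be told apart here.

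**Figure D4:**
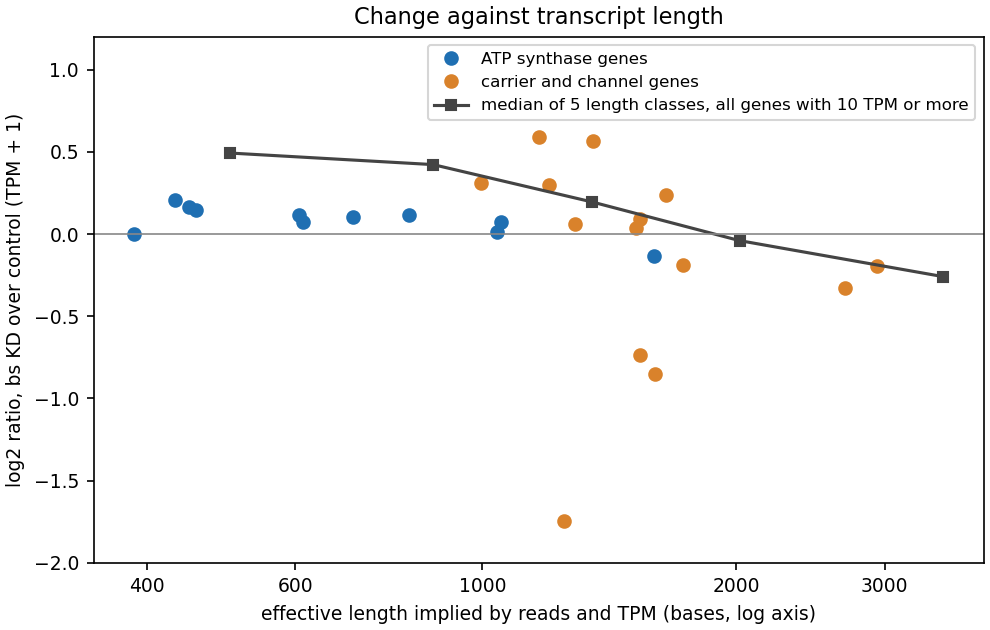
Log2 change of each detected ATP synthase gene (blue) and carrier or channel gene (orange) against its effective length in bases (log axis), with the medians of 5 length classes of all genes with 10 TPM or more as squares, from 1 library per genotype. The ATP synthase genes below 1000 bases lie between −0.0023 and 0.21, under the 0.49 and 0.42 of the 2 shortest classes of all genes.

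A change in the transcripts used can show in the implied length, though not for *ATPsynO*, *ATPsynB* and *mfrn*, which have 1 annotated transcript, and hardly for genes such as *colt* whose transcripts are of nearly equal length. The implied effective length differed by less than 2% between the libraries for all detected members except *ATPsynC*, where it went from 1051 to 989 bases (−5.89%). The annotated transcripts of *ATPsynC* run from 722 to 1794 bp. Its reads were 356721 in the control and 356120 in *bs* KD, and its TPM differed by 5.35%. *porin* had the next largest shift, from 1198 to 1222 bases. No other ATP synthase gene shifted by more than 1.13%, the value of *ATPsynG*.

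Other genes of the same pathway, taken from a list from which *CG18340* was dropped because it is the member *Ucp4B*, held small differences for ATP synthase and larger ones for some carriers. All 5 listed ATP synthase genes were detected and none reached 2-fold. *mt:ATPase6*, the proton channel subunit of the mitochondrial genome, was the highest at 28178 TPM in control muscle and 27240.1 TPM in *bs* KD, and the inhibitor gene *IF1* was the lowest at 7.49 and 8.19 TPM. *blw* had 8460 and 7582 TPM, and *sun* (epsilon subunit) 4554 and 4855 TPM. *mt:ATPase8* had 1161 and 957 TPM. Of 30 other carriers and channels 29 were found and 16 detected, with 1 higher and 3 lower by 2-fold or more, beside 9.38% and 6.05% of all detected genes. The lower ones were *SCaMC*, a calcium-regulated ATP-Mg/phosphate carrier (107 and 32.3 TPM, 3.31-fold lower), *Dic1*, a dicarboxylate carrier (6.07 and 1.54 TPM, 3.94-fold lower), and *CG1628* (1.22 and 0.0617 TPM, from 30.9 and 1.58 reads, a ratio of 0.0506 with a counting interval of 0.00743 to 0.252). The higher one was *CG18324* (15.4 and 33.1 TPM). The highest of this list by control TPM was *CG5646* at 742 and 413 TPM, a ratio of 0.556 (0.542 to 0.571). The study counted *CG5646* among its downregulated genes. The lowest detected was *CG1628*.

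The members are spread over the genome, with 12 on chromosome arm 3R, 6 on 2L, 6 on the X, 5 on 3L, 2 on 2R and 1 (*ATPsynbeta*) on chromosome 4. Besides the pairs already named, exon overlap was seen on both strands. On the same strand, *DPCoAC* shares 58.6% of its exon bases with *att-ORFB*, which was listed at 0 in both libraries, *Bmcp* 8.79% with a *Doc* transposon and *ATPsynC* 5.30% with *mir-4949*. On the opposite strand, *ATPsynbeta* shares 8.01% with *CG11076*, at 9.01 and 9.46 TPM, and *Ucp4A* 5.48% with *CG15814*, at 4.55 and 4.11 TPM. *ATPsyndelta* shares 35.6% of its exon bases with *CG2962*, which was listed at 0 in both libraries. *porin* shares 4.16% with *SmydA-3*, at 532 and 386 TPM. *colt* shares 1.55% with *Taf10*, at 27.3 and 42.1 TPM. The sources used here do not say whether strand was kept, so reads in these stretches cannot be assigned with certainty.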

How the data were processed

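The authors quantified single-end reads of 100 bp with Salmon against release 6.21 transcripts and deposited lengths, TPM and estimated counts per gene and library. Columns of the authors' own DESeq2 comparison (fold change, standard error, p-values) were not used, and 0 other value columns were left out. Symbols were matched for 13842 of 13931 genes, and positions come from the BDGP6.54 annotation of the same assembly. The deposited length of genes with several transcripts is not the one behind TPM: over genes with at least 100 reads, 959 of 961 with 1 transcript but 1181 of 3638 of all matched within 5% in the control. Lengths were therefore recomputed from reads and TPM.

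Detection was 1 TPM, the pseudocount 1 TPM and the size of change 2-fold. Intervals are exact (Clopper-Pearson, 95%) on rounded reads. All members are named. Of the list of other genes, those past 2-fold and the highest and lowest are named, while *blw*, *sun*, *mt:ATPase8*, *fabp*, *SmydA-3*, *Taf10*, the other overlapping genes and the single markers were picked once their values were known. The members and lists were chosen with earlier results of these data known. The steps were tested on simulated data. Python 3.11.15, numpy 2.4.6, pandas 2.3.3 and scipy 1.17.1 were used.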

Additional observations from a re-analysis of the deposited data

How the results depend on the processing

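No paired analysis was possible because each genotype has 1 library. The median log2 change of the ATP synthase genes, 0.10, became −0.028 with median-ratio scaling, −0.048 with upper-quartile scaling, 0.055 without genes of the mitochondrial genome in the total, 0.063 without *Act88F*, 0.19 with estimated reads scaled to the library total, 0.075 with no filter on detection and −0.11 with 20 deposited length classes removed. With implied lengths, an alternative added after seeing the data, it was −0.28 over all genes and 0.067 over genes above 1000 TPM. The median over all detected genes, 0.073, moved to −0.032 and −0.047 with the first 2 scalings. Genes higher and lower by 2-fold numbered 599 and 386, against 909 and 683 with a pseudocount of 0.1 TPM, 262 and 136 with 5 TPM, 368 and 169 with the 10 TPM filter and 396 and 460 with implied length classes removed. The carrier median, 0.049, was set against −0.099 and 0.084, the medians of the single genes' lower and upper counting bounds. It left that range only with reads scaled to the library total (0.14). The ratio of summed TPM was 0.947, 1.004 and 1.009 for ATP synthase and 0.978, 1.036 and 1.042 for carriers with median-ratio scaling, without the mitochondrial genome and without *Act88F*. Members lower by 2-fold numbered 2 with a pseudocount of 0.1 TPM (*Bmcp* added), 2 with deposited length classes removed (*Mpcp2* added), 0 with a filter at 10 TPM and 3 at 1.5-fold, where 1 was higher. At 2 SD from the tier line 1 member, *sea*, was counted. By reads rather than TPM, *Mpcp1* held 99.01% of its pair in the control and 99.48% in *bs* KD. *sea* ran from −2.10 to −1.03 over 10 alternatives, and 10 of 25 members kept their direction in every alternative run. Depth limits *Ant2*, *Bmcp*, *Shawn* and *sea*, with 32.4 to 128 reads each in *bs* KD.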
